A study of Mus musculus with 13 samples.

Results

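The interleukin-2 (IL-2) and interleukin-7 (IL-7) receptor chains, with the kinases, transcription factors and inhibitors that act below them, were followed at the RNA level in double negative (DN) thymocytes. The 10 genes were chosen by name for their place in this pathway, and all 10 were found among the 47937 genes of the deposited count table: the receptor chains Il7r, Il2ra, Il2rb and Il2rg, the kinases Jak1 and Jak3, the transcription factors Stat5a and Stat5b, and the feedback inhibitors Socs1 and Cish. RNA came from freshly sorted, untreated thymocytes at the DN3 and DN4 stages, which lie before and after the β-selection checkpoint, of C57BL/6 mice aged 6 weeks. Control mice were Wt;Lck-Cre+ (Wt) and the other mice Opa1fl/fl;Lck-Cre+ (KO-labelled), so that all mice carried Cre, which the Lck promoter drives in developing T cells. There were 3 Wt and 3 KO-labelled DN3 libraries and 4 Wt and 3 KO-labelled DN4 libraries. By the numbers in the sample titles, taken here as mouse numbers, they came from 7 mice, of which WT40 gave a DN4 library only.

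IL-7 binds a receptor of the Il7r and Il2rg chains, and IL-2 a receptor of the Il2ra, Il2rb and Il2rg chains. The Il2rb and Il2rg chains also signal for IL-15, and Il2rg, the common γ chain, is shared by a family of cytokine receptors. JAK1 and JAK3 sit on these chains and phosphorylate STAT5A and STAT5B, which enter the nucleus and turn on, among other genes, Cish and Socs1, whose products dampen the same pathway. In the thymus, IL-7 signals keep early thymocytes alive. CD25, the product of Il2ra, is the surface marker by which DN3 cells (CD25 high) are told from DN4 cells (CD25 low). The change of Il2ra between the stages was thus set by the sort.

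Of the 10 genes, 9 had a promoter sequence (250 bases before to 50 after the start of a transcript) in RefSeq GRCm38.p6. Their sequences were searched for TTCNNNGAA, the palindromic motif to which STAT5 is known to bind, which reads the same on both strands. The motif was found in 2 of the 9 genes, Il7r and Cish, and in 2726 of 32851 mouse promoters of the same length (8.3%). Both sequences are shown because these genes lie at opposite ends of the pathway, receptor and feedback inhibitor, and hold the motif. Il2ra and Stat5a, which like Il7r and Cish were lower in Wt DN4 libraries, held none. Capitals mark the motif, and each sequence is given 5′ to 3′ on the strand of the gene.
Il7r, chr15:9529827-9530126, minus strand: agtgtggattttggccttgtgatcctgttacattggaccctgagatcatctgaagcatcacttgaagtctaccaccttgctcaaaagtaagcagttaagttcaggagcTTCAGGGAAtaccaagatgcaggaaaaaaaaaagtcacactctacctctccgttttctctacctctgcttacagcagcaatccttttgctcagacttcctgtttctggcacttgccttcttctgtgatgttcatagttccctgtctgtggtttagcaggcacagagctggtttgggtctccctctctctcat
Cish, chr9:107296409-107296708, plus strand: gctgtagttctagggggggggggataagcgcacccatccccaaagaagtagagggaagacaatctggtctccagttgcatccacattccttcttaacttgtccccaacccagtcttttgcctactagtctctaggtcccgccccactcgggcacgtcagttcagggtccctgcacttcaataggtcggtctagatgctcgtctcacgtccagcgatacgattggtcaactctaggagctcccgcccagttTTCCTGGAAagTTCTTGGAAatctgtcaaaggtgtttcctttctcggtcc
The Il7r motif began at position -142 from the RefSeq start. By the annotation used below for gene positions, Il7r starts at 9530176 on the minus strand and Cish at 107296026 on the plus strand. Both windows lie inside the genes so placed. In Cish, the motif occurred at positions 0 and 11, and 0.457% of all promoters held 2 or more such motifs. A match of these letters is a description of the window and was not tested for binding.

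Libraries held 5926848 to 14148661 counts on genes. In the DN3 library of WT05, 41.1% of counts fell on ribosomal RNA-like genes (0.441% to 1.74% in the others), which left 3490862 counts elsewhere. Opa1 over the whole gene gave KO-labelled against Wt log2 fold changes of -0.12 (DN3) and -0.08 (DN4), with overlapping levels, so the genotype of a library rests on its label. Genes of the Y chromosome were counted in 2 mice, WT40 and WT46, so sex and genotype were not balanced. DN3 markers (Ptcra, Notch1, Notch3 and others, 8 genes) summed to 3008 to 4383 CPM (counts per megacount of TMM-scaled library size) in DN3 and to 1108 to 2700 CPM in DN4 libraries. Markers of B cells (6 genes, among them Cd79a, Ms4a1 and Pax5) summed to 20.9 to 54.7 CPM in DN3 libraries but to 231 to 2950 CPM in DN4 libraries, and 4 DN4 libraries (KO45, KO49, WT05 and WT48) exceeded 500 CPM. In bulk RNA, fewer cells of a type and less RNA per cell cannot be told apart.

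From DN3 to DN4 in Wt mice, Il2rb and the common chain Il2rg rose, Il7r fell, Jak1 and Jak3 rose, Stat5a fell while Stat5b did not pass the test, and Cish fell while Socs1 did not pass it. Among Wt libraries, 8 of the 10 genes passed an adjusted p of 0.05 (4 higher and 4 lower in DN4), where 22.9% of 12691 genes tested passed (13.4% higher, 9.43% lower). The count of 8 includes Il2ra, from which nothing is read. The median log2 fold change of the 10 genes was -0.01, beside -0.03 over all genes tested. In 8 of the 10 the DN3 and DN4 libraries did not overlap, as in 35% of genes tested. Scaled by library totals in place of TMM, which moved the median of all genes from -0.03 to 0.16 and the share called to 14%, 4 of the 10 genes passed (Il2ra, Il2rb, Il2rg and Jak1).

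**Figure D1:**
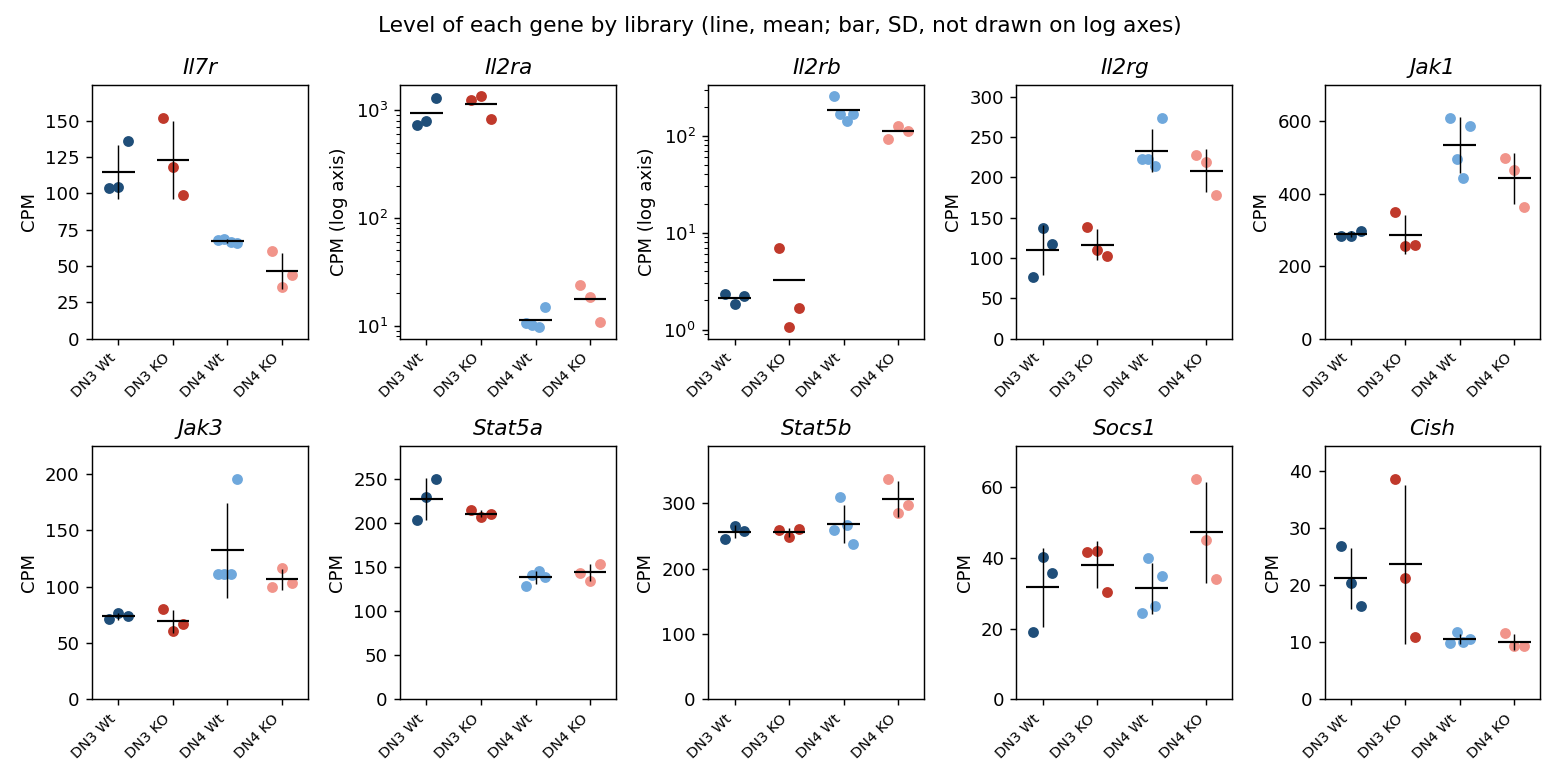
Level of each of the 10 genes in CPM in 3 DN3 Wt, 3 DN3 KO-labelled (DN3 KO), 4 DN4 Wt and 3 DN4 KO-labelled libraries. Points are libraries, horizontal lines are group means and vertical bars are SD; Il2ra and Il2rb are on log axes, without bars. Il2ra and Il2rb swap places between the stages, and for Il7r and Il2rb the DN4 KO-labelled libraries lie below all 4 DN4 Wt libraries.

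Il7r, the chain that binds IL-7 and is shared with the receptor of TSLP (ENSMUSG00000003882.4, GRCm38 chromosome 15 from 9505788 to 9530176, minus strand), stood at 103, 104 and 136 CPM in the Wt DN3 libraries of WT05, WT46 and WT48. In Wt DN4 libraries it stood at 67.9, 68.7, 66.6 and 65.7 CPM in WT05, WT40, WT46 and WT48. All 4 DN4 values lay below all 3 DN3 values and spanned only 65.7 to 68.7 CPM. The log2 fold change was -0.79 (standard error 0.119, adjusted p = 0.00243, edgeR quasi-likelihood, Benjamini-Hochberg). In KO-labelled mice KO45, KO49 and KO51, Il7r went from 152, 118 and 98.5 CPM in DN3 to 60.2, 35.5 and 43.7 CPM in DN4. The groups did not overlap, and the log2 fold change was -1.43 (standard error 0.230, adjusted p = 0.00502, same fit). Within mice, Il7r was lower in DN4 in 6 of 6 mice, by -0.61 to -1.73 on the log2 scale.

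Il2rb, the signalling chain shared by the IL-2 and IL-15 receptors (ENSMUSG00000068227.8, chromosome 15 from 78479256 to 78495271, minus strand), was close to absent from Wt DN3 libraries, with 2.34, 1.86 and 2.20 CPM in WT05, WT46 and WT48, or 8, 21 and 20 counts. In Wt DN4 libraries it reached 255, 167, 142 and 169 CPM in WT05, WT40, WT46 and WT48. The 85.9-fold rise (log2 fold change 6.42, standard error 0.280, adjusted p = 1.6e-05, edgeR quasi-likelihood, Benjamini-Hochberg) was as large on the log2 scale as the sorted fall of Il2ra, -6.39. In KO-labelled mice KO45, KO49 and KO51, Il2rb went from 7.01, 1.065 and 1.67 CPM to 93.6, 127 and 112 CPM. The DN3 library of KO45, with 85 counts, stood above the other DN3 libraries, and in that library 6 early progenitor markers (Kit, Cd44 and others) summed to 101 CPM, against 45.7 to 73.0 CPM in the other DN3 libraries. Foxp3, a regulatory T cell factor, stood there at 4.29 CPM (0.110 to 1.24 CPM in the others), while the 4 regulatory T cell markers together summed to 206 CPM, within the 141 to 286 CPM of the others. Their part in the Il2rb value was not tested. The log2 fold change was 4.96 (standard error 0.538, adjusted p = 0.00108, same fit), and 6.29 without that library.

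Several markers of natural killer and innate lymphoid cells, which carry Il2rb, were also higher in DN4 libraries. The study's flow cytometry gated DN subsets on lineage-negative cells, a gate meant to remove such cells and B cells, but whether the sort for RNA used it is not given in the sources used here. Of 8 markers, 7 could be tested and 5 rose from DN3 to DN4 in Wt mice (13.4% of all genes did), as did 5 in KO-labelled mice (11.2%). Klrb1c, Klrd1, Eomes, Tbx21 and Prf1 missed the low-count filter among DN3 libraries alone. They entered the stage fits through their DN4 levels, so the count was largely fixed in advance and is a description. In DN3 libraries, Klrb1c was at 0 in all 6 and Eomes and Klrd1 in all but 1; in DN4 libraries these genes reached 1.39 to 4.49, 2.79 to 6.54 and 3.19 to 16.7 CPM. The 8 markers summed to 242 to 327 CPM in DN3 and 240 to 474 CPM in DN4 libraries, most of it Gzma. Their part in the rise of Il2rb was not tested. Without the 4 DN4 libraries high in B-cell markers, the Il2rb log2 fold change in Wt was 6.21 (adjusted p = 1.4e-04, edgeR quasi-likelihood, Benjamini-Hochberg).

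Il2rg, the common γ chain (ENSMUSG00000031304.18, chromosome X from 101264378 to 101268255, minus strand), stood at 76.1, 137 and 117.1 CPM in Wt DN3 libraries and at 223, 223, 214 and 274 CPM in Wt DN4 libraries, in the same order of mice. The groups did not overlap, and the log2 fold change was 1.05 (standard error 0.199, adjusted p = 0.00666, edgeR quasi-likelihood, Benjamini-Hochberg). KO-labelled libraries held 138, 109 and 102 CPM in DN3 and 228, 219 and 178 CPM in DN4. Here the log2 fold change was 0.81 (standard error 0.160, adjusted p = 0.0110, same fit), which missed the threshold without the DN3 library of KO49 (adjusted p = 0.0547) or without the DN4 libraries high in B-cell markers (adjusted p = 0.322). Leaving out the latter leaves 1 KO-labelled DN4 library, KO51, assumed to vary like the other groups, in each KO-labelled value so given. Il2rg was higher in DN4 in 6 of 6 mice.

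Il2ra (ENSMUSG00000026770.5, chromosome 2 from 11642807 to 11693193, plus strand), the chain that gives the IL-2 receptor its high affinity, stood at 1250, 1337 and 820 CPM in DN3 of the KO-labelled mice (KO45, KO49, KO51, in this order) and at 24.1, 18.4 and 11.0 CPM in their DN4 libraries. In Wt mice it stood at 727, 794 and 1292 CPM in DN3 and at 10.6, 10.2, 9.78 and 15.01 CPM in DN4. The DN4 libraries thus kept 105 to 337 Il2ra counts each after a sort against its product. Per kilobase of exon, Il2ra ranked first of the 10 genes in DN3 (164 CPM per kb ± 54.0, SD, n = 3 in Wt) and ninth in DN4 (2.00 CPM per kb ± 0.425, SD, n = 4). Il2rb ranked last in Wt DN3 libraries (0.498 CPM per kb ± 0.0580, SD, n = 3) and rose to rank 4 in Wt DN4 libraries (42.7 CPM per kb ± 11.5, SD, n = 4), next to Stat5b, with which its range overlapped.

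The log2 ratio of Il2ra to Il2rb per kilobase, which sets the private chain against the shared signalling chain, was 7.78, 8.29 and 8.75 in the Wt DN3 libraries of WT05, WT46 and WT48 and -5.00, -4.43, -4.26 and -3.90 in the Wt DN4 libraries of WT05, WT40, WT46 and WT48. In KO45, KO49 and KO51 it was 7.06, 9.79 and 8.49 in DN3 and -2.37, -3.20 and -3.76 in DN4. Every library of DN3 held more Il2ra than Il2rb per kilobase and every library of DN4 less, a swing that the sort on CD25 set in part and that was not tested. The ratio of Il2rb to Il2rg, neither of which encodes the sorted marker, was -6.45 on the log2 scale in Wt DN3 and -1.22 in Wt DN4 libraries, a difference of 5.22 (exact permutation test, two-sided, p = 0.0286, the smallest that 3 against 4 libraries can give, and 0.126 adjusted over 22 ratio tests). Paired within mice, over both genotypes, it was higher in DN4 in 6 of 6 mice by 4.96 ± 1.001 (SD; exact sign-flip test, p = 0.0312, adjusted p = 0.0417 over 4 paired tests and 0.102 over all 26 ratio tests). Over all 26, no test could go below 0.0542.

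**Figure D2:**
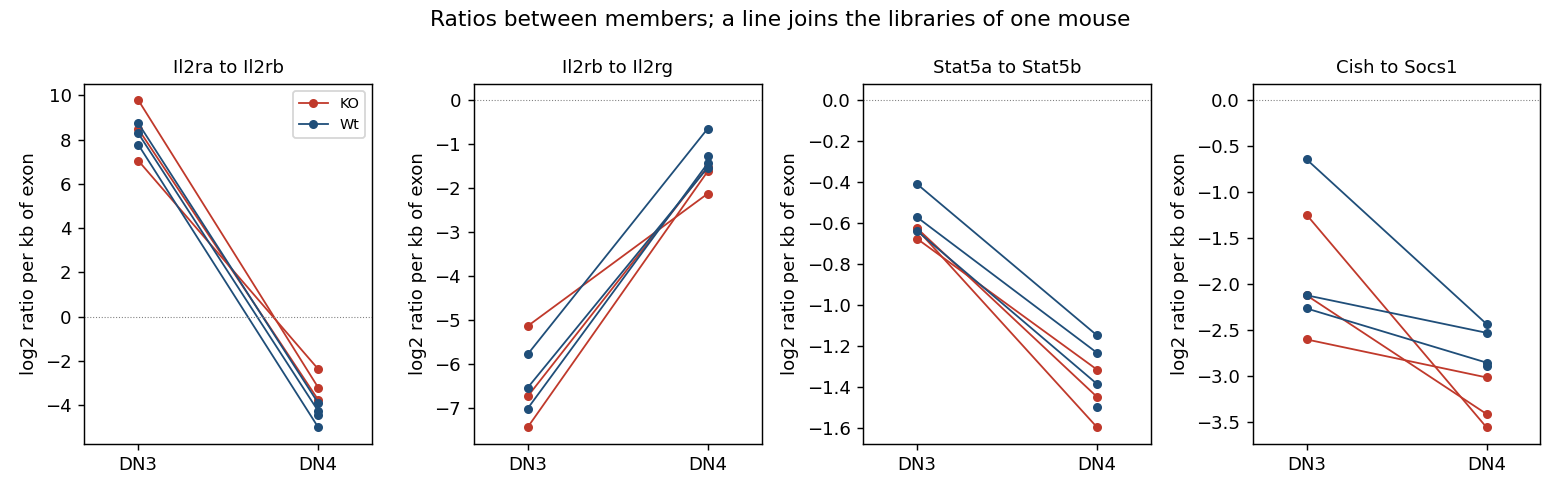
Log2 ratios per kilobase of exon between pairs of the genes at DN3 and DN4; points are libraries, each line joins the DN3 and DN4 libraries of a mouse, and the unjoined point is WT40. Il2ra to Il2rb falls from above 7 to below -2 in all 6 mice, Il2rb to Il2rg rises in all 6, and Stat5a to Stat5b and Cish to Socs1 fall in all 6.

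Jak1, the kinase carried by the Il7r and Il2rb chains (ENSMUSG00000028530.14, chromosome 4 from 101152367 to 101265282, minus strand), stood at 285, 284 and 298 CPM in Wt DN3 and 610, 496, 445 and 587 CPM in Wt DN4 libraries. The groups did not overlap (log2 fold change 0.86, standard error 0.139, adjusted p = 0.00337, edgeR quasi-likelihood, Benjamini-Hochberg). In KO-labelled mice, 349, 255 and 258 CPM in DN3 stood beside 500, 465 and 364.5 CPM in DN4, with a log2 fold change of 0.60 that missed the threshold (standard error 0.178, adjusted p = 0.0535) and passed it with the mouse as a block (adjusted p = 0.00163). Jak3, the kinase carried by Il2rg (ENSMUSG00000031805.17, chromosome 8 from 71676296 to 71690575, plus strand), stood at 70.8, 76.7 and 73.7 CPM in Wt DN3 and 111, 111, 112 and 196 CPM in Wt DN4 libraries. Its log2 fold change was 0.82 in Wt (standard error 0.221, adjusted p = 0.0294) and 0.60 in KO-labelled mice (standard error 0.143, adjusted p = 0.0238), both by the edgeR quasi-likelihood fit (Benjamini-Hochberg). The Wt call was lost without any of the 3 DN3 libraries (adjusted p = 0.0609 to 0.0854), and the KO-labelled call without the DN3 libraries of KO49 or KO51, the DN4 library of KO49 or the DN4 libraries high in B-cell markers (adjusted p = 0.0729 to 0.0974). The ratio of Jak3 to Jak1 changed by -0.08 in Wt and by 0.00 in KO-labelled mice, on the log2 scale, with 3 of 6 mice higher.

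Stat5a (ENSMUSG00000004043.14, chromosome 11 from 100859351 to 100885169, plus strand) and Stat5b (ENSMUSG00000020919.11, chromosome 11 from 100780731 to 100850724, minus strand) are neighbouring genes that encode the closely related factors STAT5A and STAT5B. Stat5a stood at 203, 230 and 250 CPM in Wt DN3 and at 128, 141, 146 and 138 CPM in Wt DN4 libraries, without overlap (log2 fold change -0.75, standard error 0.108, adjusted p = 0.00209, edgeR quasi-likelihood, Benjamini-Hochberg). In KO-labelled libraries it stood at 215, 207 and 210 CPM in DN3 and at 144, 135 and 154 CPM in DN4 (log2 fold change -0.57, standard error 0.102, adjusted p = 0.00723, same fit). Without the DN4 libraries high in B-cell markers, that value was -0.45 (adjusted p = 0.206). Stat5b stood at 246, 265 and 258 CPM in Wt DN3 and at 260, 309, 266 and 238 CPM in Wt DN4 libraries, which overlap (log2 fold change 0.04, 95% interval -0.22 to 0.30). In KO-labelled libraries Stat5b stood at 259, 248 and 260 CPM in DN3 and at 337, 285 and 297 CPM in DN4, which do not overlap. The log2 fold change was 0.24 (adjusted p = 0.162), and with the mouse as a block it passed the threshold (adjusted p = 0.0422, edgeR quasi-likelihood, Benjamini-Hochberg).

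The ratio of Stat5a to Stat5b per kilobase lay between -0.68 and -0.41 on the log2 scale in the 6 DN3 libraries and between -1.60 and -1.15 in the 7 DN4 libraries, with no overlap. It was lower in DN4 in 6 of 6 mice, by -0.76 ± 0.120 (SD; exact sign-flip test, p = 0.0312, adjusted p = 0.0417 over 4 paired tests and 0.102 over all 26 ratio tests). The exons of the genes share 608 stretches of 50 bases (8.21% of those of Stat5a and 11.0% of those of Stat5b), so a small share of reads may have been counted for either gene or for neither.

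Cish (ENSMUSG00000032578.7, chromosome 9 from 107296026 to 107302784, plus strand), a STAT5-induced inhibitor of the receptor, stood at 26.9, 20.4 and 16.4 CPM in Wt DN3 and at 9.91, 11.8, 10.02 and 10.7 CPM in Wt DN4 libraries. The groups did not overlap (log2 fold change -1.01, standard error 0.195, adjusted p = 0.00713, edgeR quasi-likelihood, Benjamini-Hochberg), but without the DN4 libraries high in B-cell markers the adjusted p was 0.230 at a like fold (-0.93). In KO-labelled DN3 libraries Cish spread from 38.7 CPM in KO45 over 21.3 in KO49 to 11.0 in KO51, while the DN4 libraries held 11.7, 9.33 and 9.26 CPM. The log2 fold change of -1.27 missed the threshold (standard error 0.417, adjusted p = 0.0721) and passed it with the mouse as a block (-1.13, adjusted p = 0.00898, edgeR quasi-likelihood, Benjamini-Hochberg). Cish was lower in DN4 in 6 of 6 mice, by -0.25 to -1.73 on the log2 scale.

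Socs1 (ENSMUSG00000038037.4, chromosome 16 from 10782240 to 10785536, minus strand), an inhibitor that binds JAK kinases directly and also answers interferons, stood at 19.0, 40.2 and 35.8 CPM in Wt DN3 and at 24.3, 39.8, 26.3 and 34.99 CPM in Wt DN4 libraries, with a log2 fold change of -0.06 (95% interval -0.68 to 0.56). KO-labelled libraries held 41.6, 42.1 and 30.3 CPM in DN3 and 62.35, 45.15 and 34.1 CPM in DN4, with a log2 fold change of 0.29 (95% interval -0.24 to 0.82). Socs1 was higher in DN4 in 4 mice and lower in 2. The ratio of Cish to Socs1 was lower in DN4 in 6 of 6 mice, by -1.13 ± 0.798 on the log2 scale (SD; exact sign-flip test, p = 0.0312, adjusted p = 0.0417 over 4 paired tests and 0.102 over all 26 ratio tests).

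Set against the feedback genes, Il2ra went from 5.61 above Cish on the log2 scale per kilobase in Wt DN3 to 0.26 above it in Wt DN4 libraries, and from 3.93 above Socs1 to -2.42. In KO-labelled mice the ratio of Il2ra to Cish went from 5.90 to 0.92, and that of Il2ra to Socs1 from 3.91 to -2.40. In DN4 libraries Il2ra and Cish were the lowest of the 10 genes per kilobase, at 2.00 and 1.65 CPM per kb in Wt mice, with overlapping ranges.

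**Figure D3:**
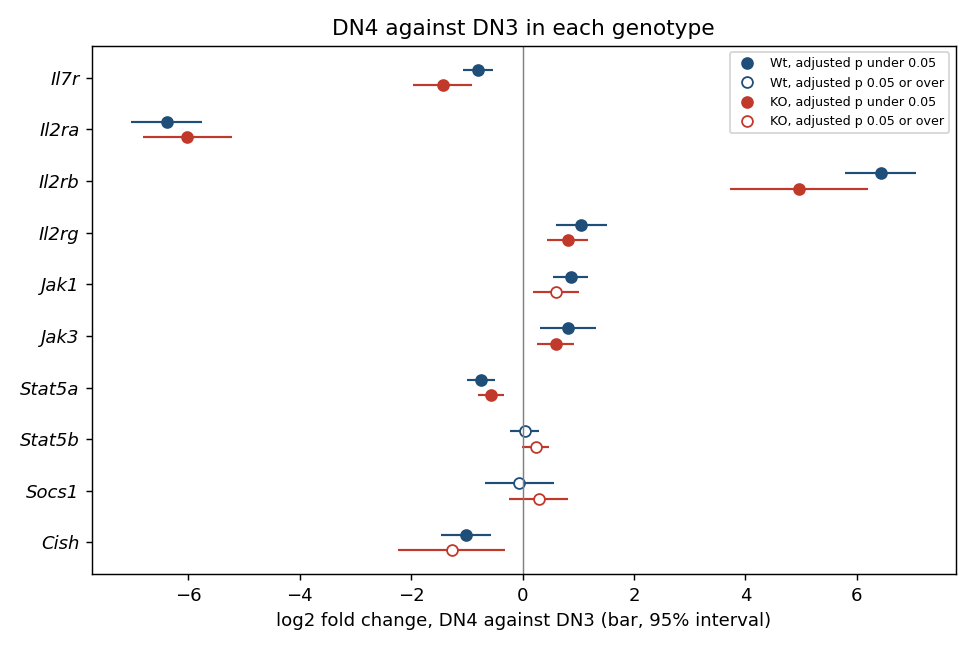
Fitted log2 fold change of each gene, DN4 against DN3, in Wt and KO-labelled (KO) mice with its 95% interval; filled points passed an adjusted p of 0.05. In both genotypes Il2rb lies far to the right and Il2ra, which the sort set, far to the left; the other 8 genes lie between -1.43 and 1.05.

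In KO-labelled mice, 6 of the 10 genes passed between the stages (3 higher, 3 lower), where 18.6% of 12580 genes tested passed (11.2% higher, 7.34% lower). DN3 and DN4 libraries did not overlap in 8 genes, beside 38.7% of genes tested, and overlapped in Socs1 and Cish. With the mouse as a replicate block, Jak1, Stat5b and Cish also passed, while the share of all genes rose to 35.8%. Leaving out the DN4 libraries high in B-cell markers leaves KO51 alone in DN4, so a count of passing genes from that refit is not given. Between the genotypes, the stage changes of 0 of the 10 genes differed at an adjusted p of 0.05 by the interaction in the edgeR quasi-likelihood fit, where 0% of 13361 genes passed (480 at an unadjusted p under 0.05, and 0 by DESeq2). The interaction of Il7r was -0.63 on the log2 scale (unadjusted p = 0.0334) and that of Il2rb -1.45 (unadjusted p = 0.0471), each with an adjusted p of 1. Without the DN3 library of KO45, the Il2rb value was -0.16. The unadjusted p of the other 8 genes was 0.223 or higher.

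Between the genotypes within DN3, 0 of the 10 genes passed, where 0% of 12105 genes tested passed by the edgeR quasi-likelihood fit (168 at an unadjusted p under 0.05, none of them among the 10, and 1 gene, or 0.00479%, by DESeq2). Wt and KO-labelled libraries overlapped in all 10 genes, beside 6.44% of genes tested that did not overlap. The 95% intervals of the log2 fold change were narrowest for Stat5b (-0.28 to 0.26) and widest for Il2rb (-0.90 to 2.21). For Il2ra the value was 0.27, with an interval from -0.36 to 0.90, and for Il7r 0.09, with an interval from -0.35 to 0.53.

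Within DN4, 0 of the 10 genes passed, where 0.0535% of 13084 genes tested passed by the edgeR quasi-likelihood fit (0.392% by DESeq2, with none of the 10 among them). Of the 10 genes, 4 had an unadjusted p under 0.05, beside 715 of the 13084 genes tested. Il7r and Il2rb were the 2 genes in which the KO-labelled libraries, at 35.5 to 60.2 CPM and 93.6 to 127 CPM, lay below every Wt library, at 65.7 to 68.7 CPM and 142 to 255 CPM; 7.08% of genes tested did not overlap, 4.34% with the KO-labelled libraries lower. The log2 fold change was -0.49 for Il7r (standard error 0.176, unadjusted p = 0.0226, adjusted p = 0.883) and -0.69 for Il2rb (standard error 0.197, unadjusted p = 0.00762, adjusted p = 0.832), by the edgeR quasi-likelihood fit (Benjamini-Hochberg). Il2ra and Socs1 leaned the other way, with 0.69 (unadjusted p = 0.0334) and 0.63 (unadjusted p = 0.0309), and their libraries overlapped. The other 6 genes lay between -0.28 and 0.23, with unadjusted p of 0.103 or higher.

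**Figure D4:**
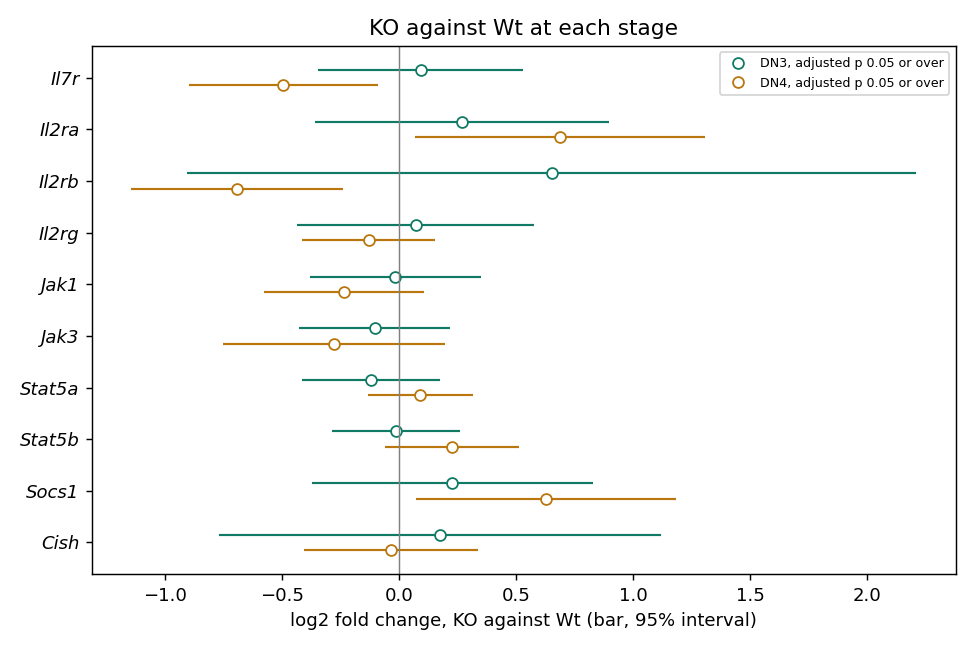
Fitted log2 fold change of each gene, KO-labelled (KO) against Wt, in DN3 and DN4 libraries with its 95% interval; no point passed an adjusted p of 0.05. In DN4 the intervals of Il7r and Il2rb lie below 0 and those of Il2ra and Socs1 above it; in DN3 all 10 intervals cross 0.

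Other values moved with the DN4 genotype differences of Il2rb and Il2ra. Eomes stood at 2.79 to 3.53 CPM in KO-labelled and 4.77 to 6.54 CPM in Wt DN4 libraries, and the 8 natural killer and innate lymphoid markers summed to 240, 348 and 329 CPM in the KO-labelled (KO45, KO49, KO51) and to 406, 368, 371 and 474 CPM in the Wt libraries (WT05, WT40, WT46, WT48). Most of that sum was Gzma, and of the 8 markers 5 had a fitted log2 fold change below 0 and 3 above it: Klrb1c (0.16), Tbx21 (0.04) and Ncr1 (0.03). Nkg7, a cytotoxic granule gene, stood at 36.1 to 45.8 CPM in KO-labelled and 60.6 to 74.2 CPM in Wt libraries (unadjusted p = 1.6e-04, adjusted p = 0.164, edgeR quasi-likelihood, Benjamini-Hochberg). The 8 DN3 markers, of which 6 were higher in KO-labelled libraries (median log2 fold change 0.48), summed to 1567 to 2700 CPM in KO-labelled and 1108 to 1871 CPM in Wt libraries. Rag1, which recombines receptor genes, made up 1590 of the 2700 CPM in KO45 and 875 of the 1871 CPM in WT40, and these libraries were also the highest of their group in the immature single positive and double positive markers. Among the DN3 markers, Notch3, a receptor of the DN3 stage, stood at 77.3 to 145.7 CPM in KO-labelled and 46.9 to 55.8 CPM in Wt libraries (log2 fold change 1.04, adjusted p = 0.427). The 6 markers of immature single positive and double positive cells summed to 1074 to 3526 CPM in KO-labelled and 521 to 2329 CPM in Wt libraries. All 6 markers of γδ T cells had fitted values below 0 (median log2 fold change -0.55, unadjusted p of 0.0693 or higher), with sums of 770, 1166 and 1086 CPM in the KO-labelled and 966 to 2293 CPM in the Wt libraries. Their part in the receptor levels was not tested. With the B-cell marker level as a covariate, the values were -0.50 for Il7r and -0.66 for Il2rb, and without the 4 libraries high in those markers, with KO51 alone against WT40 and WT46, they were -0.63 and -0.46. Without the mice that carried Y-linked counts they were -0.47 and -0.90. Those mice, WT40 and WT46, also had the lowest B-cell marker sums of the Wt DN4 libraries (323 and 432 CPM). Sex and B-cell marker level thus cannot be told apart among Wt DN4 libraries, and these refits are not separate checks.

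**Figure D5:**
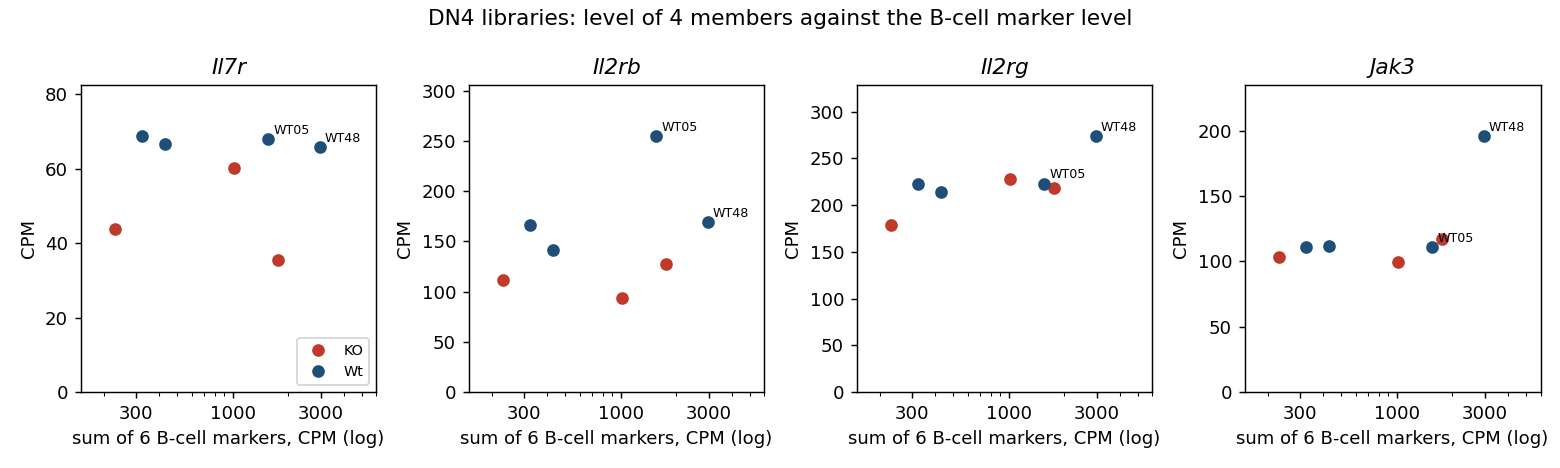
CPM of 4 of the genes in the 7 DN4 libraries against the sum of 6 B-cell markers in the same library (log axis); red points are KO-labelled (KO) and blue points Wt libraries. WT48, with the highest sum (2950 CPM), also holds the highest Il2rg and Jak3, while Il7r in the 4 Wt libraries stays between 65.7 and 68.7 CPM over the whole range of the sum.

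The 22 unpaired ratio tests could not reach an adjusted p below 0.0571 with these numbers of libraries, so a miss of the threshold says nothing about the ratios. In DN4 the ratio of Il2ra to Il2rb was 1.29 higher on the log2 scale in KO-labelled libraries, with no overlap (exact permutation test, two-sided, p = 0.0286, the smallest possible, adjusted p = 0.126). Il2ra in DN4 is what a sort against its product left, and the study reports lower CD25 in these mice. The part of the gate in this difference was not tested. The ratio of Cish to Socs1 in DN4 was -3.56, -3.41 and -3.02 in the KO-labelled libraries (mice in the order above) and -2.43, -2.89, -2.53 and -2.85 in the Wt libraries. The KO-labelled libraries thus lay below all Wt libraries, with a mean difference of -0.65 (exact permutation test, p = 0.0286, adjusted p = 0.126). With 3 DN3 libraries in each genotype, p could not go below 0.1.

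The rest of the pathway was read from lists of named genes in the Wt stage comparison, in which 22.9% of all genes passed by the edgeR quasi-likelihood fit. Of the other receptor chains that pair with the common γ chain or with Il7r (Il4ra, Il9r, Il15ra, Il21r, Crlf2), 2 of 5 rose and none fell. With the mouse as a block 4 rose, and 4 passed without the DN4 library of WT40 (4 higher) or WT48 (3 higher, 1 lower). Il4ra, the IL-4 receptor chain, went from 5.27 to 7.49 CPM in Wt DN3 libraries to 70.2 to 194 CPM in DN4 (log2 fold change 4.14), and Il21r, the IL-21 receptor chain, from 33.9 to 56.6 CPM to 152 to 270 CPM (1.96). Il4ra was highest in WT48, the DN4 library highest in B-cell markers, and its log2 fold change without the libraries high in them was 3.59. Of 7 cytokines of the family (Il2, Il4, Il7, Il9, Il15, Il21 and Tslp), 0 passed the low-count filter in either stage comparison, and Il2 was at 0 in all 7 DN4 libraries.

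Among the other kinases and STATs, 3 of 7 rose in Wt mice and 0 fell, among them Jak2 (log2 fold change 1.07) and Stat6 (0.60), the factor of IL-4 signalling. Stat3, which neighbours Stat5a, had a value of 0.06 and did not pass. Among 15 other inhibitors of the pathway, 5 rose and 1 fell. That count rested on single libraries: 1 rose without the DN3 library of WT48 or the DN4 library of WT05, 2 rose without the DN3 library of WT46, and 3 rose with the mouse as a block. Socs2, a STAT5-induced inhibitor like Cish, fell from 6.14 to 7.82 CPM in Wt DN3 libraries to 0 to 0.976 CPM in Wt DN4 libraries (log2 fold change -3.97, adjusted p = 0.00433). Sh2b3, the adaptor LNK (1.17), Ptpn6, the phosphatase SHP-1 (1.12), and Pias3 (1.04) rose. Sh2b3 and Ptpn6 were highest in WT48, at 187.5 and 636 CPM, and without the libraries high in B-cell markers their values were 0.53 and 0.74, and Pias3 did not pass (0.75, adjusted p = 0.0624).

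Of 10 genes known to respond to STAT5, 3 rose and 1 fell in Wt mice, 5 rose and 1 fell without the DN4 libraries high in B-cell markers, and 3 rose and 0 fell with library totals. Bcl6, a repressor that STAT5 is known to hold down, rose from 6.28 to 7.61 CPM to 48.98 to 65.9 CPM (log2 fold change 3.01, adjusted p = 3.4e-05), and the survival kinase gene Pim2 from 6.90 to 8.49 CPM to 42.8 to 64.1 CPM (2.80, adjusted p = 7.0e-05). The survival gene Mcl1 rose as well (0.91), while the growth regulator Myc fell (-0.98). Bcl2, a survival gene tied to IL-7, had a value of -0.01 in Wt mice (95% interval -0.37 to 0.36) and fell by 0.62 on the log2 scale in KO-labelled mice (adjusted p = 0.0148). The interaction was -0.62 with an adjusted p of 1, and Bcl2 was named after its values were seen. In KO-labelled mice 5 of the 10 rose and 4 fell, where 18.6% of all genes passed. Without the DN3 library of KO49, 4 rose and 1 fell, and without that of KO51, 3 rose and 2 fell.

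Of 7 transcription factors known to act on Il7r, 2 rose and 2 fell in Wt mice, and 1 rose and 1 fell without the DN3 library of WT46. Foxo1, an activator of Il7r, rose from 22.1 to 34.5 CPM to 107 to 178 CPM (log2 fold change 2.43, adjusted p = 4.2e-04) while Il7r itself fell. Runx1, also an activator, fell by 1.46 on the log2 scale, and the repressor Gfi1 by 0.74. Ets1 rose by 0.56 and did not pass with the mouse as a block (adjusted p = 0.103), nor Gfi1 without the DN4 libraries high in B-cell markers (adjusted p = 0.0739). All adjusted p-values of these lists are from the edgeR quasi-likelihood fit, Benjamini-Hochberg over all genes tested. Between the genotypes, 0 genes of these lists passed in DN3 or in DN4 by this fit. By DESeq2, 1 passed in DN4: Ccnd2, a cyclin gene (log2 fold change -0.53, adjusted p = 0.0402), named after its values were seen.

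Across the 13 libraries, the genes most like Il2rb by Pearson correlation of log2 CPM were Trpm1 (r = 0.995), Cd7 (0.994), which encodes a surface protein of T and natural killer cells, and Gimap3 (0.991), a GTPase gene of lymphocytes. Cd7 went from 0.490 to 1.90 CPM in DN3 libraries to 33.2 to 84.4 CPM in DN4 libraries. Those most like Il7r were A630095N17Rik (0.948), Zbtb12 (0.935) and Guf1 (0.928), and those most like Cish were Tmprss3 (0.950), Drc7 (0.934) and Afdn (0.924). Among 13361 genes and libraries of 2 stages, such values describe a shared stage pattern. For Cish, the likeness included the spread among KO-labelled DN3 libraries: Afdn stood at 37.4, 19.7 and 8.53 CPM in KO45, KO49 and KO51, in the same order as Cish.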

How the data were processed

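RNA of sorted DN3 and DN4 thymocytes was measured in 13 libraries. The authors made TruSeq stranded mRNA libraries, trimmed reads with Cutadapt, mapped them with STAR to mm10 (per the submitters' processing notes) and deposited raw read counts per gene from featureCounts, without normalization; the annotation and the strand setting of counting are not given in the sources used here. Strand bears on Stat5a, Jak1 and Cish, which overlap genes on the opposite strand; Il2ra, Il2rg, Jak1 and Jak3 overlap an annotated gene on their own strand. Columns were joined to mouse, stage and genotype by label, with 0 unused columns. Symbols and exon lengths came from GENCODE M21 on GRCm38 (47310 of 47937 identifiers matched without version).

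The libraries of the groups compared, and no others, entered each main fit by the quasi-likelihood test of edgeR 4.0.16 (R 4.3.3). The refits without the DN4 libraries high in B-cell markers used the 9 remaining libraries of both genotypes together. Filter, scaling and estimated spread there thus differ from the main fits as well. Genes were kept by filterByExpr (minimum count 10), libraries were TMM-scaled, and p-values were adjusted over all genes tested by the Benjamini-Hochberg method at 0.05. CPM are on TMM-scaled library sizes of a fit of all 13 libraries. The interaction used all 13 libraries. Ratios were log2 ratios of CPM per kilobase of exon after adding 0.5 counts, tested by enumerating every split or sign (numpy 2.4.6). Libraries held 5926848 to 14148661 counts, and counting error limits genes such as Il2rb in DN3, with 8 to 85 counts. The scripts were tested on simulated data.

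Alternatives were DESeq2 1.42.0, its size factors, library totals, no low-count filter, leaving out ribosomal RNA-like genes, all libraries in 1 fit, each library left out, and the mouse as a replicate block; and, chosen after seeing the data, the B-cell marker level as a covariate, leaving out the 4 DN4 libraries over 500 CPM of B-cell markers, and leaving out mice with Y-linked counts. Same-numbered libraries were taken to come from the same mouse, by the number in their titles. Their deviations from group means correlated at 0.124 to 0.460 over 13361 genes. No other pairs were set beside them, so this does not test the pairing. P-values between the genotypes within a stage measure the spread between mice. Those of the unpaired stage tests and of the interaction measure the spread between libraries, with the pairing left aside. Those of the block fits and sign-flip tests measure the spread of changes within mice. No libraries of a group were duplicates (smallest chi-squared per degree of freedom 6.18). Named genes were the 10 members, Opa1, markers that moved with a member, and the 3 genes most like Il7r, Il2rb and Cish. From each pathway list, up to 4 genes called in the Wt stage comparison with the largest fitted change were named. Outside this rule, Stat3 was named as a neighbour of Stat5a, and Bcl2 and Ccnd2 after their values were seen. Some genes of these lists are counted in them but not reported by name here. The members and lists were chosen with earlier results of these data known.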

Additional observations from a re-analysis of the deposited data

Results flagged for a closer look

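In 27 checks of groups of 4 libraries, 3 found a library far from the other 3, where chance flags about 1 in 20, and all 3 concerned the DN4 Wt library of WT48. Il2ra stood there at 15.01 CPM (9.78 to 10.6 CPM in the other 3), Il2rg at 273.8 CPM (214 to 223 CPM) and Jak3 at 195.7 CPM (111 to 112 CPM). The same library had the highest sum of B-cell markers, 2950 CPM against 323 to 1553 CPM in the other Wt DN4 libraries, and B cells also express Il2rg and Jak3; the part of these cells in the values was not tested. Without this library the Jak3 stage change in Wt mice was 0.56 on the log2 scale and still passed.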

How the results depend on the processing

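Among refits of the log2 fold changes of the 10 genes, 710 kept direction and side of the threshold, 15 lost the call, 12 gained it and 33, all of values that were not called, changed sign. The number of genes called between the stages in Wt mice was 4 of 10 with library totals, which also moved the median of all genes in DN3 from -0.01 to 0.23 between the genotypes and in the interaction from -0.02 to -0.20. In KO-labelled mice, leaving out each library in turn gave 4 to 7 genes called (4 without the DN3 library of KO49). The share of all genes called in those refits is not given here, so a loss of calls is not read as particular to the 10 genes. No count is given without the DN4 libraries high in B-cell markers, which leaves 1 KO-labelled DN4 library. With the mouse as a replicate block and both genotypes pooled, 3 of 4 ratio tests passed, and 0 of these 4 passed when adjusted over all 26 (0.102 for the 3). The 22 unpaired tests could not reach an adjusted p below 0.0571, nor could all 26 together go below 0.0542, so these counts cannot be compared. Beyond Jak1, Stat5b and Cish in KO-labelled mice the block changed no other call of the 10 genes. In KO-labelled mice, Jak1 also passed with no low-count filter (adjusted p = 0.0137), with DESeq2 (0.0113) and with all libraries in 1 fit (0.0175), as did Cish (0.0110, 0.0126 and 0.0231). For Jak1, adjusted p over its alternatives ran from 0.00163 to 0.480, and for Cish from 0.00898 to 0.305. Of the counts of called genes in the other pathway lists, 43 moved by over 1.5 times and 419 did not. With library totals, 2 other inhibitors and 1 Il7r regulator rose in Wt mice.

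Sign changes were these, on the log2 scale. Between the stages in Wt mice, Stat5b was -0.034 with the block, and Socs1 was 0.039 with library totals and 0.036 without the DN4 libraries high in B-cell markers; Socs1 in KO-labelled mice was -0.15 without those libraries. Between the genotypes in DN3, library totals gave 0.23 for Jak1, 0.13 for Jak3, 0.10 for Stat5a and 0.22 for Stat5b, no filter gave 0.0053 for Jak1 and 0.0077 for Stat5b, and Stat5b was 0.013 without the mice with Y-linked counts, as Cish was 0.022 in DN4. The DN3 ratio of Il2rb to Il2rg was -0.010 with a prior count of 2. Leaving out each library in turn gave, between the stages in Wt mice, -0.033 to 0.091 for Stat5b and -0.31 to 0.15 for Socs1. Between the genotypes in DN3 it gave -0.092 to 0.24 for Il7r, -0.61 to 1.04 for Il2rb, -0.12 to 0.26 for Il2rg, -0.18 to 0.067 for Jak1, -0.034 to 0.013 for Stat5b, -0.0035 to 0.43 for Socs1 and -0.39 to 0.52 for Cish. It gave -0.17 to 0.038 for Cish in DN4, and in the interaction -0.30 to 0.033 for Jak3 and -0.59 to 0.32 for Cish. Among ratios between the genotypes in DN3 it gave -0.50 to 0.87 for Il2ra to Il2rb, -0.056 to 0.72 for Il2ra to Cish, -0.32 to 0.15 for Il2ra to Socs1, -0.64 to 0.51 for Il2rb to Il2rg and -0.69 to 0.20 for Cish to Socs1. In DN4 it gave -0.15 to 0.12 for Il2ra to Socs1 and -0.14 to 0.16 for Jak3 to Jak1, which between the stages ran from -0.23 to 0.056 in Wt and from -0.11 to 0.14 in KO-labelled mice. The cause of these changes was not tested. With 3 or 4 libraries a group, and 8 to 85 counts of Il2rb in DN3, small differences were not detectable.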
